A study of Mus musculus with 12 samples.

Results

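Microglia and other myeloid cells sense antibody, lipids and debris through receptors that cannot signal alone. The ligand-binding chains pair with small adaptor proteins, Fcer1g (the common gamma chain of Fc receptors) or Tyrobp (also called DAP12), whose tails carry an immunoreceptor tyrosine-based activation motif (ITAM) that recruits kinases, while the inhibitory receptor Fcgr2b carries an opposing motif of its own. Cells so engaged use lysozyme, pore-forming protein, lysosomal membrane proteins and the NADPH oxidase, an enzyme that makes superoxide, against what they take up. The 10 genes described here cover these steps: the adaptors Fcer1g and Tyrobp, the receptors Fcgr3, Fcgr2b and Trem2, the effectors Mpeg1, Lyz2 and Cd68, and the oxidase subunits Cyba and Cybb. On mm10, the build named in the submitters' processing notes, the genes lie as the table gives them: Fcer1g at chr1:171229572-171234365, minus strand, Tyrobp at chr7:30413760-30417585, plus strand, Fcgr3 at chr1:171051174-171064935, minus strand, Fcgr2b at chr1:170958617-170976547, minus strand, Trem2 at chr17:48346401-48354147, plus strand. The effectors lie likewise: Mpeg1 at chr19:12460779-12465284, plus strand, Lyz2 at chr10:117277331-117282321, minus strand, Cd68 at chr11:69664213-69666153, minus strand, Cyba at chr8:122424776-122432930, minus strand, Cybb at chrX:9435252-9487771, minus strand. They are 10 of 54532 genes in the deposited table and were taken by name. The names were chosen by their higher FPKM in CFA than in saline libraries in an earlier reading of the same table, so the differences between these groups are given for them as a description, without a test.

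The RNA came from the lateral septum, a forebrain nucleus, of mice 3 days after injection. One group of 6 libraries came from mice given CFA, in pain research the usual name for complete Freund's adjuvant, which causes lasting local inflammation, and the other 6 came from mice given saline. All were labelled wild type (WT). The labels give neither strain, sex, age nor injection site and do not say whether each library was a separate animal, so errors measure the spread between these libraries, part of which may be technical. Values are FPKM, which divide a gene's fragments by its length and by a measure of library size. Each library's median ratio to the geometric mean of all libraries was the same, 1.005, in all 12. The values had therefore already been scaled beyond division by each library's total. Recovered depths were 35.5 to 39.2 M reads in CFA and 33.6 to 38.4 M reads in saline libraries. Genes listed as markers of lateral septum neurons were expressed. Slc32a1, the vesicular GABA transporter, averaged 131 FPKM in CFA and 146 FPKM in saline. Zic1, a transcription factor of septal neurons, averaged 99.0 FPKM in CFA and 106 FPKM in saline. Striatal neuron markers were also present, so these levels do not show how much other tissue was included. The groups were not alike in other respects. Xist, expressed from the inactive X chromosome, was above 1 FPKM in 5 CFA and 2 saline libraries and the Y-linked helicase gene Ddx3y in 1 CFA and 4 saline libraries. Ttr, the main transcript of choroid plexus, reached at most 44.5 FPKM in CFA libraries but 2259 FPKM in saline library 3 and 701 FPKM in saline library 5. The microglial chemokine receptor gene Cx3cr1 was at 1.68 to 6.32 FPKM in CFA and 8.20 to 9.99 FPKM in saline libraries. The part of these differences in the values below was not tested unless a value without the libraries is given.

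Promoters are shown for the 3 genes whose groups did not overlap (Mpeg1, Lyz2 and Fcer1g) and for Trem2, because myeloid genes are commonly bound near their start by the ETS factor PU.1. Each line is the 150 bases before the transcription start, read 5′ to 3′ on the gene's strand, from RefSeq on GRCm38.p6. Capitals mark GGAA or its reverse complement TTCC, the core letters shared by ETS factors.
Mpeg1, chr19:12460620-12460769, plus strand: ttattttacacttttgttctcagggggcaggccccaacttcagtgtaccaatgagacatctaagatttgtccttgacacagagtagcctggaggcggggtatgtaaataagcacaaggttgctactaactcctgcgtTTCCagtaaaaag
Lyz2, chr10:117282322-117282471, minus strand: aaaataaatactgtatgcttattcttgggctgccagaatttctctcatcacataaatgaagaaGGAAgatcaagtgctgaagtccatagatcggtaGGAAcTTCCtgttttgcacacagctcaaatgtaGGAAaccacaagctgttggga
Fcer1g, chr1:171234366-171234515, minus strand: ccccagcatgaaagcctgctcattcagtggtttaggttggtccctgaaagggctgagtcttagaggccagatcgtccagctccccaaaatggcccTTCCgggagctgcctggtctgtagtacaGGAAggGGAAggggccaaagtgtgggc
Trem2, chr17:48346251-48346400, plus strand: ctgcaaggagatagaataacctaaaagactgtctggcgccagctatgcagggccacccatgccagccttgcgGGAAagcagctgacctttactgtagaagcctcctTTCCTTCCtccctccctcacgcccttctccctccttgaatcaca
The Mpeg1 stretch held 1 such core, that of Lyz2 4, and those of Fcer1g and Trem2 3 each. The core is common: 93.4% of 32851 mouse promoters held it on either strand in the 250 bases before their start. The longer letters GAGGAA, searched on both strands and always overlapping a GGAA core, were in 23.3% of those promoters. Of the 9 genes with an entry, GAGGAA was found for 3, Trem2, Fcgr3 and Cd68, and its letters were not in this window of Mpeg1, Lyz2 or Fcer1g. In Trem2 they lay on the opposite strand, 40 to 35 bases before the RefSeq start.

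In level, the 10 genes fell into a middle range and a low one. Tyrobp averaged highest, at 8.67 FPKM over the 12 libraries, and exceeded Cyba (6.06 FPKM) in 6 of 6 CFA and 5 of 6 saline libraries. Cyba, Lyz2, Fcer1g, Mpeg1, Fcgr3 and Cd68 averaged 5.29 to 6.06 FPKM and changed places between libraries, so no order held over all 12. Some changes went with the group: Cyba was above Lyz2 in 6 saline but 2 CFA libraries, and Lyz2 above Fcer1g in 1 saline but 5 CFA libraries. Cd68 was above Trem2 (1.73 FPKM), and Trem2 above Fcgr2b (0.474 FPKM), in all 12 libraries. Cybb was lowest at 0.160 FPKM, with 10 to 83 recovered reads per library. Reads behind the other genes ran from 66 to 1156 per library. Fcgr2b and Cybb did not reach 1 FPKM in any library and so were not among the 13345 genes tested for CFA against saline; the other 8 were.

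All 10 genes averaged higher in CFA than in saline libraries. The differences ran from 0.08 for Fcgr2b to 0.78 for Lyz2 on the log2(FPKM + 1) scale, with a median of 0.22, while the median over all 13345 genes tested was -0.00427, with 48.0% of them positive. Since the genes were picked with this comparison in view, the shared direction supports nothing further. In whole tissue, more myeloid cells and more RNA per myeloid cell cannot be told apart. By limma with Benjamini-Hochberg adjustment over all genes tested, 4 of 13345 genes passed an adjusted p of 0.05, or 0.0300%. Calls of the 10 genes are not given, because the genes were picked by this same comparison. Those higher in CFA made up 0.0150% of the genes tested. Every CFA library lay above every saline library for 3 of the 10, against 0.202% of the genes tested. Nothing is read from this count, which the choice of the genes favours.

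**Figure D1:**
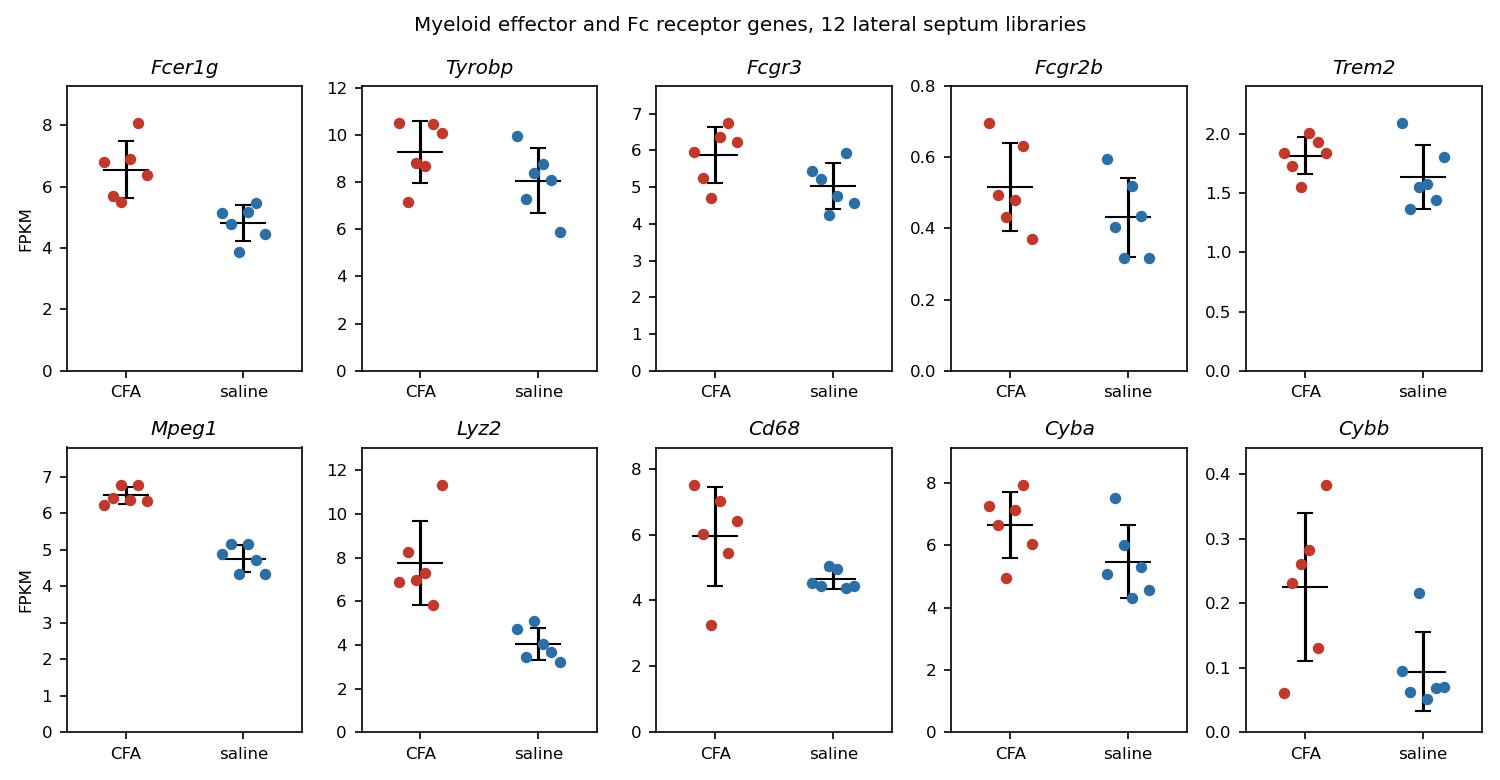
FPKM of each of the 10 genes in 6 CFA and 6 saline libraries (points), with the mean and SD of each group (black); each panel has its own axis from 0. The groups do not overlap for Fcer1g, Mpeg1 and Lyz2, and CFA library 3 lies below all saline libraries for Cd68.

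The adaptor Fcer1g is required for surface expression and signalling of the activating IgG receptors of mice. Fcer1g ran from 5.48 through a median of 6.60 to 8.07 FPKM in CFA libraries and from 3.89 through 4.96 to 5.46 FPKM in saline libraries. The highest saline library lay just below the lowest CFA library, so the groups touched without overlapping. The means were 6.56 ± 0.934 FPKM in CFA and 4.81 ± 0.573 FPKM in saline (SD, n = 6 each), a log2 fold change of 0.38 (SE 0.09). Tyrobp, the adaptor of Trem2 and several other receptors, ran from 7.15 through 9.44 to 10.5 FPKM in CFA and from 5.88 through 8.24 to 9.96 FPKM in saline libraries. Its groups overlapped over most of their range, with 3 CFA libraries above the highest saline one (log2 fold change 0.19, SE 0.12, and 0.11 without saline library 6). The ratio of Tyrobp to Fcer1g, both per length, had a median of 1.42 in CFA and 1.61 in saline libraries, with overlapping ranges.

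Fcgr3 encodes the low-affinity activating IgG receptor that depends on Fcer1g. It ran from 4.69 through 6.09 to 6.74 FPKM in CFA and from 4.23 through 4.99 to 5.94 FPKM in saline libraries. The groups overlapped, with 4 CFA libraries above the saline range (log2 fold change 0.19, SE 0.09). Fcgr2b, the inhibitory IgG receptor, was much scarcer, at 0.371 to 0.696 FPKM in CFA (median 0.486) and 0.317 to 0.595 FPKM in saline libraries (median 0.419). Gm38204 lies over it on the other strand, and 1.92% of its 150-base stretches recur in other genes, so its counts are less certain. Its groups overlapped widely, and the log2 fold change was 0.08 (SE 0.07), or 0.05 without CFA library 1. Per length, Fcgr3 stood at 8.57 to 16.8 times the level of Fcgr2b in CFA and 9.15 to 14.4 times in saline libraries, and the ranges of this ratio overlapped. Trem2, a receptor for lipids and apolipoproteins, ran from 1.56 through 1.84 to 2.01 FPKM in CFA and from 1.36 through 1.56 to 2.09 FPKM in saline libraries. Its single highest value was in saline library 1, and no CFA library exceeded it (log2 fold change 0.10, SE 0.07). Among the libraries with Xist, 5 CFA and 2 saline, the Trem2 difference was 0.26, and without saline libraries 3 and 5 it was 0.06.

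Mpeg1 encodes perforin-2, a pore-forming protein of macrophages that attacks engulfed bacteria. It ran from 6.23 through 6.40 to 6.79 FPKM in CFA and from 4.33 through 4.80 to 5.15 FPKM in saline libraries. The CFA libraries lay close together, with a coefficient of variation of 3.65% against 7.76% in saline, and at 976 to 1156 reads in CFA against 674 to 852 in saline it was the most deeply read of the 10. The log2 fold change was 0.38 (SE 0.04), and 0.32 within the libraries with Xist. Lyz2, the lysozyme of myeloid cells, ran from 5.84 through 7.15 to 11.3 FPKM in CFA and from 3.23 through 3.87 to 5.12 FPKM in saline libraries. All CFA libraries lay above the saline range, and CFA library 6 stood highest by far. The mean in CFA was 1.92 times that in saline (log2 fold change 0.78, SE 0.15), the log2 fold change was 0.68 without CFA library 6, and it was 0.93 within the libraries with Xist. Its close relative Lyz1 was at or near 0 in every library, with 8 reads in all, and no stretch of 150 bases of Lyz2 transcripts recurred in transcripts of another gene.

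Cd68, a heavily glycosylated protein of lysosomal membranes, ran from 3.26 through 6.22 to 7.51 FPKM in CFA and from 4.39 through 4.50 to 5.05 FPKM in saline libraries. In 5 CFA libraries it was above the whole saline range, and in CFA library 3 below it. The log2 fold change was 0.27 (SE 0.15), and 0.40 without CFA library 3. That library was the lowest of the CFA group for 5 of the 10 genes, Fcer1g, Trem2, Fcgr3, Cd68 and Cyba, and the only CFA library with Ddx3y in place of Xist.

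Cyba and Cybb encode the 2 membrane subunits of the phagocyte NADPH oxidase, of which Cybb is the catalytic one. Cyba ran from 4.95 through 6.87 to 7.94 FPKM in CFA and from 4.32 through 5.19 to 7.52 FPKM in saline libraries. Its groups overlapped, with 1 CFA library above the saline range (log2 fold change 0.25, SE 0.13), and with Xist as a covariate the difference was 0.06. The table also places Gm20388, on the other strand, over Cyba, and whether strand was used in counting is unknown. No stretch of 150 bases of Cyba transcripts recurred in transcripts of another gene on either strand. Shorter overlaps were not examined, so some reads of the pair may be mixed. With the same covariate the difference was also smaller for Fcgr3, at 0.06, and for Cd68, at 0.13. Within the libraries with Xist the difference was 0.12 for Cyba and 0.11 for Fcgr3. For Cd68 it was also positive and was larger there, at 0.46 against 0.27 in all libraries.

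Cybb divided the CFA libraries. It had 50, 57, 58 and 83 reads in CFA libraries 2, 3, 4 and 6 but 14 and 30 reads in CFA libraries 1 and 5, against 10 to 20 reads in 5 saline libraries and 45 in saline library 3. Cx3cr1 stood at 1.68, 1.70, 2.14 and 1.76 FPKM in CFA libraries 2, 3, 4 and 6 and at 5.48 and 6.32 FPKM in CFA libraries 1 and 5. The Cybb-rich CFA libraries were therefore the Cx3cr1-poor ones, but saline library 3 had 8.20 FPKM of Cx3cr1. This pairing of genes was noticed after the values were seen and was not tested. The mean Cybb level in CFA was 2.39 times that in saline, and the fold change depended on the scale: 0.16 (SE 0.06) on log2(FPKM + 1), 0.71 with a pseudocount of 0.1 and 1.21 by voom on the recovered reads. The ratio of Cyba to Cybb, per length, spanned 15.7 to 119 in CFA and 27.8 to 119 in saline libraries, so the transcript ratio of the subunits varied widely within each group.

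The next question was whether the 10 genes varied together from library to library inside a group, where the CFA and saline difference plays no part. Of the 45 pairs, 24 correlated positively in CFA and 26 in saline libraries, with median Pearson's r of 0.18 in CFA and 0.11 in saline. Over all pairs of the 13345 tested genes the medians were 0.001 in CFA and 0.003 in saline, with 50.1% of pairs positive in CFA and 50.2% in saline. Of the 45 pairs, 14 were positive in both groups, 9 were negative in both, and 22 changed sign. With signs split about evenly in each group, unrelated signs would also often differ, so nothing is read from these counts.

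**Figure D2:**
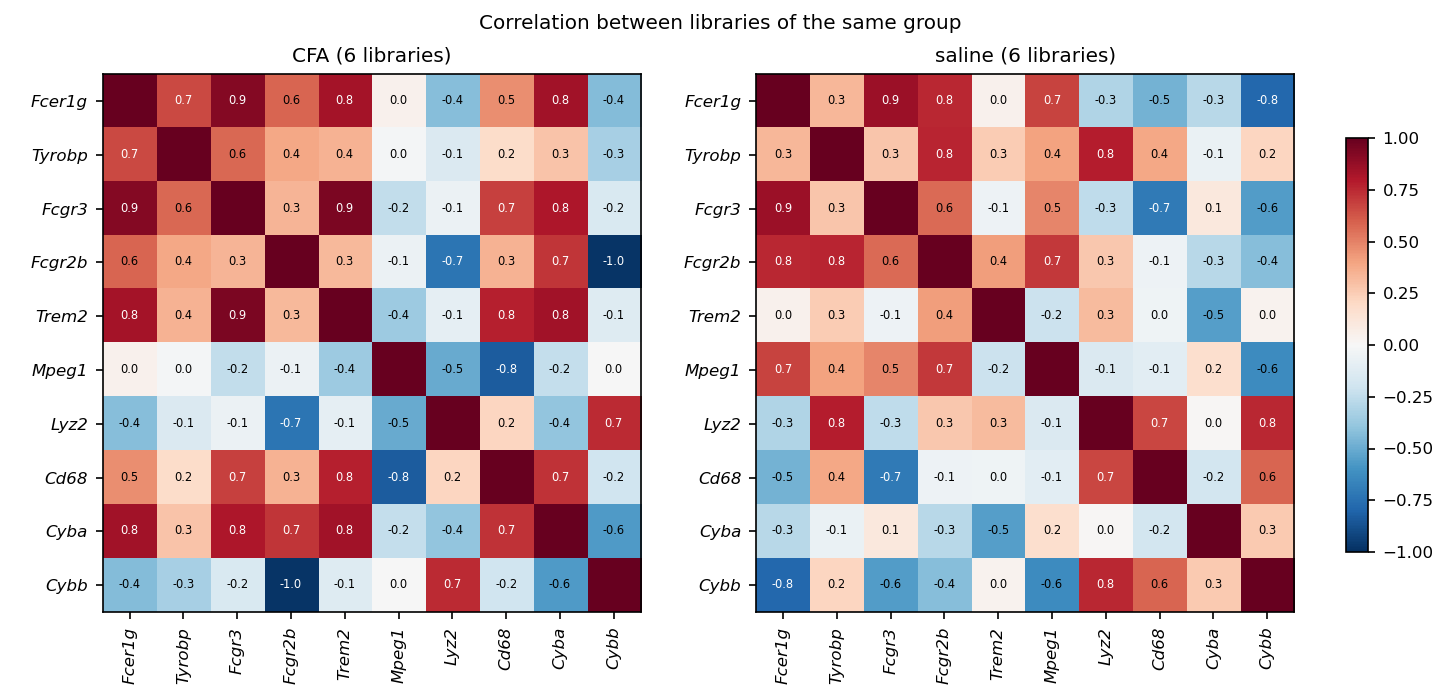
Pearson's r of log2(FPKM + 1) between each pair of the 10 genes over the 6 CFA libraries (left) and the 6 saline libraries (right), from blue (-1) to red (1). Fcer1g and Fcgr3 are red in both panels, whereas Trem2 and Fcgr3 are red in CFA (0.94) and pale in saline libraries (-0.05).

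Of 5 pairs whose proteins work together or oppose each other, Fcer1g and its receptor partner Fcgr3 varied most alike. Their r was 0.92 over the 6 CFA libraries (Spearman's rho 0.94, two-sided exact permutation p = 0.00972 and 0.0167) and 0.86 over the 6 saline libraries (rho 0.83, exact permutation p = 0.0292 and 0.0583). Adjusted over the 10 relations computed, the p of r was 0.0972 in CFA and 0.146 in saline by the exact permutation test, and that of rho 0.167 in CFA and 0.292 in saline, so none passed. Without the 2 libraries farthest from the median of Fcgr3, r was 0.80 in CFA and 0.51 in saline libraries. Within their groups, CFA library 3 and saline library 3, with Ddx3y, were lowest in both genes. CFA library 5 and saline library 5, with Xist, were highest in both. The part of the Xist and Ddx3y difference in r was not tested. Relative to 8 microglia markers of the same library, r was 0.94 in CFA (adjusted p = 0.0417, exact permutation) and 0.91 in saline libraries (adjusted p = 0.0903, exact permutation). Both genes then share the subtracted marker mean, which can raise r by itself.

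Tyrobp and its receptor partner Trem2 were less alike, with r of 0.35 in CFA (rho 0.26, exact permutation p = 0.503 and 0.658) and 0.26 in saline libraries (rho 0.43, exact permutation p = 0.625 and 0.419). The adaptors Fcer1g and Tyrobp had r of 0.66 in CFA (rho 0.43, exact permutation p = 0.146 and 0.419) and 0.33 in saline libraries (rho 0.31, exact permutation p = 0.515 and 0.564). Fcgr3 and the inhibitory Fcgr2b had 0.34 in CFA (rho 0.20, exact permutation p = 0.518 and 0.714) and 0.56 in saline libraries (rho 0.71, exact permutation p = 0.240 and 0.136). Cyba and Cybb had -0.56 in CFA (rho -0.66, exact permutation p = 0.233 and 0.175) and 0.26 in saline libraries (rho 0.26, exact permutation p = 0.572 and 0.658). None of these 8 relations passed after adjustment over the 10, the lowest adjusted p being 0.481 by the exact permutation test of r and 0.438 by that of rho. Without the 2 libraries farthest from the median of Trem2, r of Tyrobp and Trem2 was 0.86 in CFA and 0.96 in saline libraries, but without the 2 farthest from the median of Tyrobp it was 0.29 in CFA and 0.96 in saline. Without the 2 farthest in Fcer1g, r of Fcer1g and Tyrobp was 0.73 in CFA and 0.40 in saline. Without the 2 farthest in Fcgr3, r with Fcgr2b was -0.02 in CFA and 0.64 in saline, and without the 2 farthest in Cyba, r with Cybb was -0.78 in CFA and 0.84 in saline. With 4 libraries left, such values are loose.

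Over all 90 pair and group combinations, none passed after adjustment (lowest adjusted p = 0.219, exact permutation), and 10 had an unadjusted p under 0.05 by r. Besides Fcer1g and Fcgr3, the pair Lyz2 and Cybb exceeded 0.7 in both groups, a pair picked after its values were seen. Its r was 0.75 in CFA (rho 0.77, exact permutation p = 0.10 and 0.103) and 0.75 in saline libraries (rho 0.49, exact permutation p = 0.0333 and 0.356; adjusted over the 90, 0.517 in CFA and 0.375 in saline). Without the 2 libraries farthest from the median of Lyz2, r was 0.38 in CFA and -0.82 in saline, so the relation rested on those libraries. Fcgr2b and Cybb ran in opposite directions in CFA libraries (r -0.98, rho -0.94, exact permutation p = 0.00417 and 0.0167, adjusted over the 90 0.219 and 0.50), with -0.88 without the 2 farthest libraries and -0.42 in saline libraries.

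**Figure D3:**
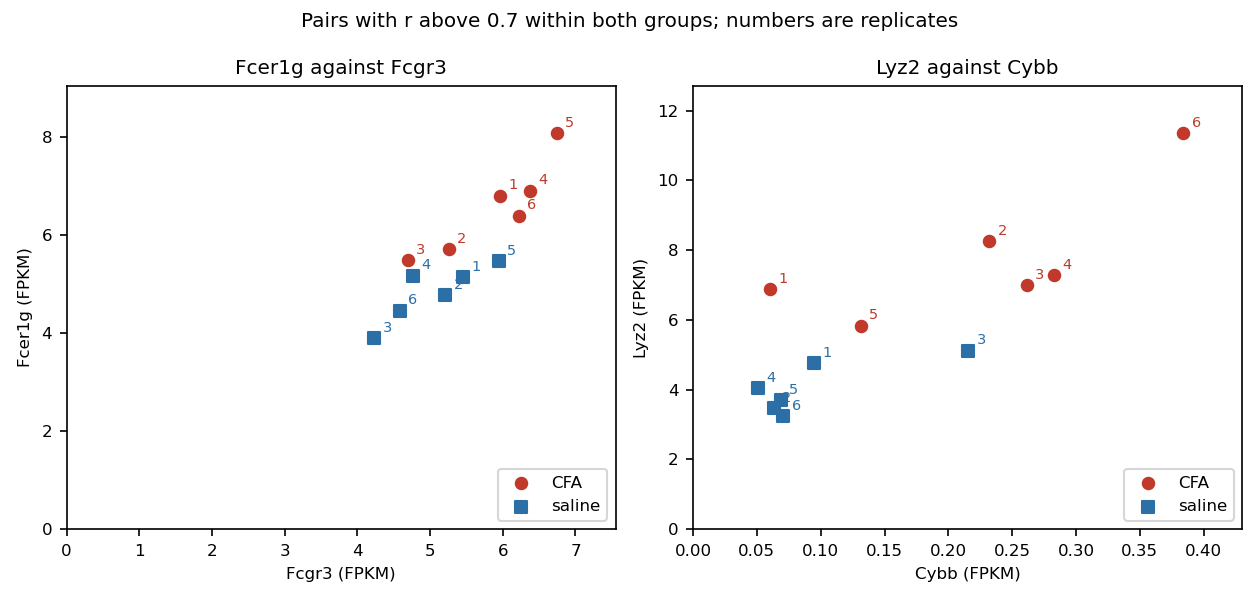
FPKM of Fcer1g against Fcgr3 (left) and of Lyz2 against Cybb (right) in CFA (red circles) and saline libraries (blue squares), numbered by replicate. Fcer1g follows Fcgr3 in both groups at a higher Fcer1g level in CFA, and Lyz2 is highest in CFA library 6, where Cybb also peaks at 0.384 FPKM.

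The genes most like the 10 as a set were sought among the other 13337 tested genes by Pearson's r, over the 12 libraries, between each gene's deviation from its group mean and the mean standardized deviation of the 10. The 8 closest were Shisa8 (r 0.90), Slc18a3 (0.89), Snora30 (0.88), Rpl13 (0.87), Polr3b (0.84), Rps23 (0.84), Dmap1 (0.84) and Ssna1 (0.84). Slc18a3 is the vesicular acetylcholine transporter of cholinergic neurons, and Rpl13 and Rps23 encode ribosomal proteins. None of the 8 is a myeloid marker, and among the 100 closest genes 1, the phosphatase gene Inpp5d, belonged to the pathway or microglia lists. Those lists held only 35 tested pathway genes and 9 tested microglia markers among the 13337 ranked. Few of them would fall in any 100 genes, so nothing is read from either count. The 8 values of r are the highest of 13337 over 12 libraries, so picking the top by itself makes them high. The libraries share depth and dissection, and the values are a description.

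The comparison of CFA with saline was then extended to other genes of the same pathways, in 7 lists drawn up by function. Of 103 genes, 35 were expressed highly enough to be tested, 15 with a positive and 20 with a negative log2 fold change (median -0.00269), and 0 passed the adjusted threshold by limma, where 0.0300% of all genes did. At an unadjusted p under 0.05 there was 1, against 7.67% of all genes tested. That gene was Laptm5, a lysosomal membrane protein of haematopoietic cells, at 9.32 ± 1.09 FPKM in CFA and 7.57 ± 0.600 FPKM in saline (SD, n = 6 each; log2 fold change 0.27, SE 0.07, limma adjusted p = 0.308). The other 68 listed genes were too low to be tested in this fit, so the counts above do not cover them.

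Among other Fc receptors and Fc-binding proteins, 3 of 8 were tested and none passed. Fcgr1, the high-affinity IgG receptor that also needs Fcer1g, averaged 1.08 ± 0.210 FPKM in CFA and 1.02 ± 0.0885 FPKM in saline (SD, n = 6 each; log2 fold change 0.04, limma adjusted p = 0.943). Fcrls, a microglial Fc receptor-like protein, had 0.11 and the neonatal Fc receptor gene Fcgrt -0.05. Of 14 other receptors that pair with ITAM adaptors, 2 were tested: Cd300c2 had 0.24 (limma adjusted p = 0.681) and Siglech -0.08, and Trem1, Trem3 and Clec4e were at 0 in all libraries.

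Of 17 listed kinases and linkers downstream of the adaptors, 5 were tested, 1 positive and 4 negative, with none past the threshold. Lyn, a Src-family kinase that phosphorylates ITAMs, had -0.05 and its relative Fyn -0.01 (limma adjusted p = 0.877 and 0.981), the phosphoinositide kinase gene Pik3cd -0.04 and its adaptor Pik3ap1 0.03. Of 18 inhibitory receptors and phosphatases 6 were tested, with Csk, which restrains Src-family kinases, at -0.14 (limma adjusted p = 0.759), Ptpn11 at 0.04, Sirpa at -0.05 and Dok3 at 0.06.

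Of 12 other genes of the NADPH oxidase family and its regulators 4 were tested and none passed: Ncf1, the organizer subunit, had 0.12 (limma adjusted p = 0.792), Rap1a 0.10, the small GTPase gene Rac1 0.01 and Cybc1, a chaperone of the membrane subunits, -0.04. Of 13 lysozyme, pore-forming and lysosomal membrane genes 6 were tested, with Laptm5 above, Cd63 at -0.09, Lamp1 at 0.03 and Scarb2 at -0.00206. Of 21 TREM2 ligands, shedding proteases and TREM2-dependent genes 9 were tested, 4 positive and 5 negative. Apoe, a TREM2 ligand, averaged 660 ± 78.3 FPKM in CFA and 681 ± 39.2 FPKM in saline (SD, n = 6 each; log2 fold change -0.05, limma adjusted p = 0.915). The sheddases Adam10 and Adam17 had 0.04 and -0.04, and the gamma-secretase subunit gene Aph1a -0.11. Whether the 10 genes differ from these pathway genes was not tested.

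**Figure D4:**
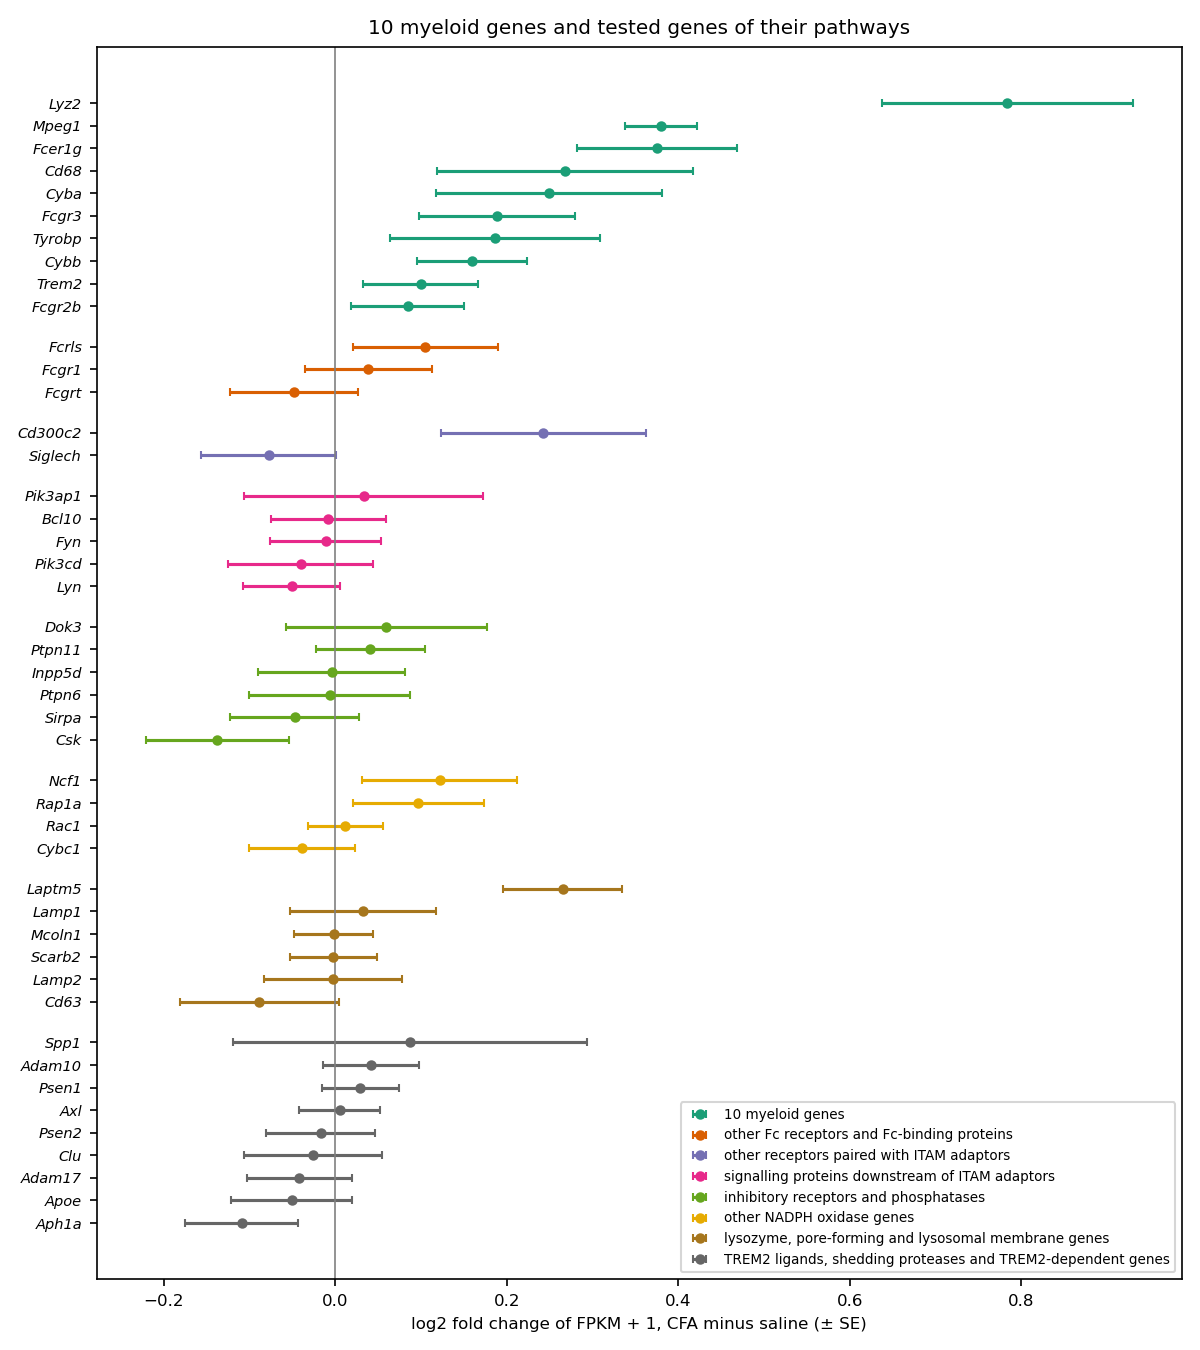
Log2 fold change of FPKM + 1, CFA minus saline, for the 10 genes (top, SE from the spread of each group) and the 35 tested genes of the 7 pathway lists (SE from limma); bars are ± SE. The pathway genes run from -0.14 (Csk) to 0.27 (Laptm5) on both sides of 0.

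Markers of the cells that could carry these transcripts were read beside them. Of 10 microglia markers 9 were tested, 2 positive and 7 negative, and none passed the threshold by limma. An unadjusted p under 0.05 was found for 4, against 7.67% of all genes tested. These were Csf1r, P2ry12, Cx3cr1 and Sall1, all lower in CFA. Their summed level was 59.6 to 84.7 FPKM in CFA and 75.1 to 89.6 FPKM in saline libraries. Csf1r, the receptor that microglia need to survive, averaged 12.4 FPKM in CFA and 16.1 FPKM in saline. Tmem119 averaged 8.54 FPKM in CFA and 8.56 FPKM in saline, and P2ry12 6.76 FPKM in CFA and 8.02 FPKM in saline. The mean log2 level of 8 of these markers, without Cx3cr1 and Sall1, was 2.60 ± 0.158 in CFA and 2.66 ± 0.0774 in saline libraries (SD, n = 6 each). Taken relative to that mean in each library, the log2 fold change was 0.85 for Lyz2, 0.45 for Mpeg1, 0.44 for Fcer1g and 0.15 to 0.33 for the other 7 genes.

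None of 7 border macrophage, 5 monocyte, 8 neutrophil, 6 T and NK cell and 4 B cell markers passed the expression filter. Border macrophage markers, led by Mrc1 (0.828 FPKM in CFA, 0.636 FPKM in saline), summed to 2.25 to 3.68 FPKM in CFA and 2.38 to 3.75 FPKM in saline libraries. Monocyte markers summed to 0.0563 to 0.400 FPKM in CFA and 0.0393 to 0.163 FPKM in saline. Neutrophil markers summed to 0.250 to 0.931 FPKM in CFA and 0.0824 to 1.78 FPKM in saline, T and NK cell markers to 0.120 to 1.93 FPKM in CFA and 0.166 to 0.649 FPKM in saline, and B cell markers to 0.0573 to 0.430 FPKM in CFA and 0.270 to 0.588 FPKM in saline. Cd4 made up nearly all of the T and NK cell sum, and each of the other 5 markers of that list was at most 0.0557 FPKM in CFA and 0.0409 FPKM in saline libraries. Of 5 mast cell markers, only Kit, also expressed by neurons, was tested (2.86 FPKM in CFA, 3.16 FPKM in saline). Haemoglobin and other erythroid markers summed to 78.9 to 668 FPKM in CFA and 157 to 333 FPKM in saline libraries, choroid plexus markers to 19.3 to 61.7 FPKM in CFA and 18.7 to 2348 FPKM in saline, and striatal neuron markers to 99.5 to 333 FPKM in CFA and 94.7 to 177 FPKM in saline. The log2 fold change was positive for 5 of 5 erythroid markers (median 0.73) and 6 of 6 striatal markers (median 0.47) and negative for 6 of 6 lateral septum neuron markers (median -0.15). None of these passed the threshold by limma, and 1 erythroid marker had an unadjusted p under 0.05. The part of blood, choroid plexus or striatum in the values of the 10 genes was not tested, but without saline libraries 3 and 5, which hold most Ttr, their median log2 fold change was 0.24.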

How the data were processed

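Lateral septum RNA of mice, in 6 CFA and 6 saline libraries, was sequenced as 150-base paired reads. The submitters' processing notes name HISAT2 2.0.5 and mm10; counter, annotation and strand setting are unknown here. The deposited values are FPKM as computed by the authors, beside gene length. FPKM times length gave whole reads, within 0.01, for 100% of values, from which depth and reads per gene were taken: 37.3 ± 1.44 M reads in CFA and 35.9 ± 1.63 M in saline (SD, n = 6 each). A further 6 columns of per-sample values matched no sample and were not used.

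Genes at 1 FPKM or more in at least 6 libraries (13345) were fitted by limma 3.58.1 (R 4.3.3) on log2(FPKM + 1) with a mean-variance trend, CFA minus saline, with Benjamini-Hochberg adjustment and a threshold of 0.05. A pseudocount of 1 understates changes of low genes. The fit was tested on simulated data. Correlations within groups used two-sided exact permutation over the 720 orderings of 6 libraries. Tables and plots used Python 3.11.15 with pandas 2.3.3, numpy 2.4.6, scipy 1.17.1 and matplotlib 3.10.9. Alternatives were other pseudocounts and filters, TPM, voom on the recovered reads, left-out libraries, Xist and microglia markers. The text names all 10 members, up to 4 tested genes of each pathway list with the lowest p, up to 4 markers of each list with the highest mean FPKM, and the 8 genes most like the members; Ttr, Xist, Ddx3y, Cx3cr1 and Lyz1 were named for context after their values were seen. The single values of 1 marker that the rule would name are not reported here. The members, lists and rules were chosen with earlier results of these data known.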

Additional observations from a re-analysis of the deposited data

Results flagged for a closer look

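Cybb stood apart in saline library 3, at 0.216 FPKM (45 reads) against at most 0.0949 FPKM (10 to 20 reads) in the other 5 saline libraries. The gap to the nearest library was 0.734 of the group's range, above the critical value of 0.625 for 6 libraries. Of 20 combinations of gene and group examined this was the only 1, and chance alone picks out about 1 in 20. The same library held 2259 FPKM of Ttr, whose part in the Cybb value was not tested.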

How the results depend on the processing

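The log2 fold changes of the 10 genes, chosen for being higher in CFA, were positive under every alternative run; other filters, no trend and the replicate block change the tests but not these values. Their median, 0.22, was 0.16 with Xist as a covariate, 0.33 with TPM, 0.31 with voom on the recovered reads, and 0.19 to 0.28 with single libraries left out. Single genes that moved by more than the spread were Cybb, Fcgr2b, Mpeg1 and Trem2. The number of genes passing among all tested, 4, was 2 without the expression filter, 2 without the trend, 1 within libraries with Xist, 1 with Xist as a covariate and 1 to 11 with single libraries left out (1 without CFA library 6 or saline library 5, 2 without saline library 2 or 4, 10 without CFA library 1, 11 without saline library 3); the cause was not tested. With the replicate block the number of genes passing was 1. Correlations of same-numbered deviations ran from -0.01 to 0.16. The most alike saline library bore the same number for CFA libraries 1, 4 and 5 but not for 2, 3 and 6. Whether the replicate numbers pair the libraries is not settled by these values. No pathway gene passed under any of 23 alternatives. For partner pairs in CFA libraries, r of Fcgr3 and Fcgr2b was -0.0203 without the 2 farthest libraries, and relative to 8 microglia markers r of Cyba and Cybb was 0.14 and that of Fcgr3 and Fcer1g 0.94. Depth limits Cybb most, with 10 to 83 reads per library.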
